A study of Mus musculus with 11 samples.

Results

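The 10 genes described here encode neutrophil granule proteins or markers of the cells that make them: Elane, Prtn3, Ctsg, Mpo, Ms4a3, Fcnb, Ngp, Ltf, Camp and Lcn2. They were selected on earlier results of these same arrays, in which genotypes and stages were compared, so their genotype and stage differences are given as a description without a test. The series measured 19933 mouse genes that had at least 1 probe set annotated to a single symbol, on 11 one-colour Affymetrix arrays with 1 array per group. Each of the 10 genes had exactly 1 such probe set, so no choice between probe sets was needed.

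All groups came from C57Bl/6 mice at steady state and differed in Zbtb46, which encodes a BTB zinc finger transcription factor of classical dendritic cells and of some erythroid progenitors. WT mice were Zbtb46+/+, Het mice were Zbtb46gfp/+ and KO mice were Zbtb46gfp/gfp, so Het and KO cells carry 1 or 2 gfp alleles and WT cells carry none. Bone marrow gave 3 sorted progenitor populations for each genotype, all Lin- and CD117+. CD41+ and CD16/32+ cells were gated out of all 3. Pre MegE cells, a stage before the megakaryocyte and red cell lines part, were CD150+ and CD105-. Pre CFU-E cells differed from these in being CD105lo, and the more mature CFU-E, which form erythroid colonies, were CD150- and CD105+. Spleen gave CD4+ dendritic cells (DC) of WT and KO mice, gated as CD11c+ and MHCII+ cells with CD172 and CD11b but without B220 or CD8. The sources used here do not give the age or sex of the mice, the number per array, the lineage antibodies, or whether 1 set of mice supplied all stages. Spread is therefore given over the 3 stages or the 3 genotypes, which measures differences between arrays and not between animals.

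Neutrophils pack their antimicrobial proteins into granules in the order in which the genes are switched on. Primary (azurophil) granules are filled at the promyelocyte stage with the serine proteases neutrophil elastase (Elane), proteinase 3 (Prtn3) and cathepsin G (Ctsg) and with myeloperoxidase (Mpo), under factors that include PU.1, C/EBPα and Myb. Secondary (specific) granules follow at the myelocyte stage under C/EBPε, and hold lactoferrin (Ltf), the cathelicidin precursor (Camp), neutrophilic granule protein (Ngp) and the siderophore binder lipocalin 2 (Lcn2). Ms4a3 is a membrane protein of granulocyte-monocyte progenitors, and Fcnb encodes ficolin B, a pattern recognition lectin of myeloid cells. None of these is a gene of the red cell or megakaryocyte programme, and the sort gates were those of that programme.

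The upstream sequences of 4 genes are shown because Elane and Prtn3 lie next to each other on chromosome 10 and varied alike, Ctsg is the third protease of the group, and Ltf is a secondary granule gene whose Het values lay close to WT. Each line gives the 110 bases that end just before the RefSeq transcript start (GRCm38.p6), read 5′ to 3′ on the gene's own strand. Capitals mark matches on either strand to the motifs named after the sequences.
Elane (chr10:79886202-79886311, plus strand): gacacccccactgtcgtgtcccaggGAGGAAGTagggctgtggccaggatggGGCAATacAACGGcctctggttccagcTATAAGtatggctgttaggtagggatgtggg
Prtn3 (chr10:79879557-79879666, plus strand): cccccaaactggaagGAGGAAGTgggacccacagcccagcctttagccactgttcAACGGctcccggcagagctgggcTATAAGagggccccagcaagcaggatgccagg
Ctsg (chr14:56102575-56102684, minus strand): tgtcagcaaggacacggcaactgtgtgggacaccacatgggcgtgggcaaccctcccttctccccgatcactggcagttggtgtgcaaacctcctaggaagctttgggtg
Ltf (chr9:111019182-111019291, plus strand): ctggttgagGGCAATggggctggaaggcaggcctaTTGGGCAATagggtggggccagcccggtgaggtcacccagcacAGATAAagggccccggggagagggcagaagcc

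In the 250 bases before the start, Elane and Prtn3 both held the PU.1-type motif GAGGAAGT, the Myb-type motif AACGG and the TATA-type motif TATAAG, in that order and at similar distances. The PU.1-type match began at base -85 in Elane and -95 in Prtn3, the Myb-type match at -50 and -55, and the TATA-type match at -31 and -32, counted back from the start. Mpo held the PU.1-type motif at -224, and Fcnb held the TATA-type motif at -37. The PU.1-type motif was in 2.44% of all 32851 promoters in the table, the Myb-type motif in 14.5% and the TATA-type motif in 6.65%. The C/EBP-type motif GGCAAT was found in 7.06% of all promoters and in 5 of the 10 genes, namely Elane and the 4 secondary granule genes Ngp, Ltf, Camp and Lcn2. The longer C/EBP-type motif TTGCNNAA was found in 9.56% of all promoters and in 4 of the 10 genes, Fcnb, Ngp, Ltf and Lcn2, and overlaps GGCAAT in Ltf and Ngp. The GATA-type motif AGATAA, in 9.99% of all promoters, was found in Ltf alone among the 10 genes. Ctsg and Ms4a3 held none of these letter strings. The motifs were chosen after the sequences had been read, and a match describes the letters only.

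The arrays were close in overall level, with median intensities between 195.66 and 218.37. The genes of the gate markers followed the gates in part. Slamf1, which encodes CD150, had log2 levels from 9.87 to 11.51 in Pre MegE and Pre CFU-E and from 6.47 to 6.98 in CFU-E. Eng, which encodes CD105, the marker that separates the stages, did not follow its gate, with levels from 11.69 to 11.84 on all 9 arrays. Itga2b, which encodes the excluded CD41, had levels from 10.85 to 10.94 in Pre MegE and from 7.87 to 8.73 in the later stages. Zbtb46 had log2 levels of 9.67 in WT and 8.02 in KO DC. In the progenitors its levels for WT, Het and KO were 7.52, 7.67 and 7.71 in Pre MegE, 8.14, 8.30 and 7.70 in Pre CFU-E and 8.87, 8.62 and 7.50 in CFU-E. The KO array was thus lowest in Pre CFU-E, CFU-E and DC but not in Pre MegE, and where this probe set lies relative to the gfp insertion was not examined. Sex-linked genes also separated the genotypes of the progenitor arrays. Xist, transcribed from the inactive X chromosome, had log2 levels from 11.52 to 12.31 on the 3 WT arrays and from 5.86 to 6.38 on the 6 Het and KO arrays. Uty, on the Y chromosome, lay between 9.40 and 9.78 on the WT arrays and between 9.81 and 10.25 on the Het and KO arrays, so the WT progenitor arrays carried both. In the comparisons with WT below, the sex of the mice and the genotype cannot be told apart. Het and KO arrays overlapped, with Xist from 5.99 to 6.38 and from 5.86 to 6.10.

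All 10 granule genes were well measured in the erythroid gates: each was above its array's median on all 9 progenitor arrays. They were lower in KO than in WT at all 3 stages, by 1.17-fold to 1.35-fold on average. The smallest difference was that of Lcn2 in CFU-E, which turned slightly positive under quantile normalization. How many of all genes were lower in KO, or highest in WT, at all 3 stages was not counted. The shared sign therefore has no background to be weighed against, and shares of all genes are given below only for larger differences. In Het cells the 6 primary granule and promyelocyte genes were lower than WT by a similar amount at every stage, while the 4 secondary granule genes lay closer to WT. All 10 were lower in Pre CFU-E than in Pre MegE in every genotype, and for this too the share of all genes was not counted. In these bulk samples, fewer cells that carry granule transcripts and less granule RNA per cell cannot be told apart.

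**Figure D1:**
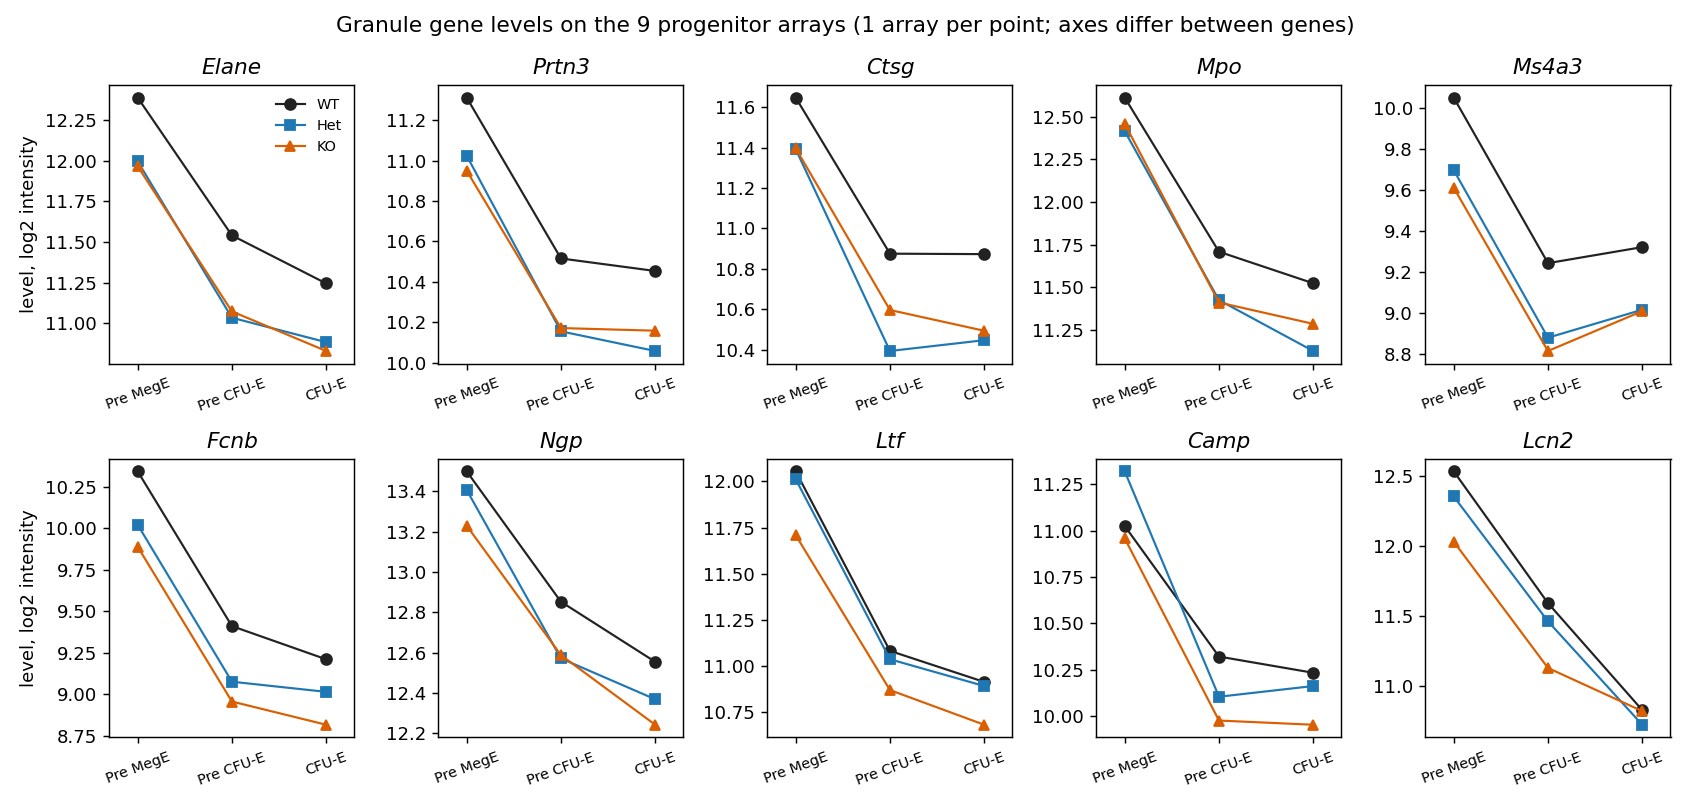
Log2 intensity (level) of each granule gene on the 9 progenitor arrays, by stage on the horizontal axis, with WT as black circles, Het as blue squares and KO as orange triangles, 1 array per point. In the 6 primary genes (Elane to Fcnb) the WT line lies above both others at each stage, and in Ltf the Het line follows the WT line, for example 12.01 against 12.05 in Pre MegE.

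Among the serine proteases, Elane showed the clearest offset between WT and the other genotypes. Its log2 levels in WT, Het and KO were 12.39, 12.00 and 11.96 in Pre MegE, 11.54, 11.03 and 11.07 in Pre CFU-E, and 11.24, 10.88 and 10.83 in CFU-E. At each stage the WT array was the high one and Het and KO lay together. The KO minus WT difference in log2 level was -0.43 ± 0.03 (SD over 3 stages), a 1.35-fold lower level, and the Het minus WT difference was -0.42 ± 0.08.

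Prtn3, the neighbour of Elane and encoder of the autoantigen proteinase 3, had log2 levels in WT, Het and KO of 11.31, 11.02 and 10.95 in Pre MegE, 10.52, 10.16 and 10.17 in Pre CFU-E and 10.45, 10.06 and 10.16 in CFU-E. WT was again the highest array at each stage. The log2 difference from WT was -0.33 ± 0.03 in KO and -0.35 ± 0.06 in Het (SD over 3 stages).

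Ctsg, which encodes cathepsin G, had log2 levels in WT, Het and KO of 11.65, 11.39 and 11.40 in Pre MegE, 10.88, 10.39 and 10.60 in Pre CFU-E and 10.87, 10.45 and 10.49 in CFU-E. Here Het was the lowest array at all 3 stages, by 0.00 to 0.20 below KO. The log2 difference from WT was -0.30 ± 0.07 in KO and -0.39 ± 0.12 in Het (SD over 3 stages).

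Mpo, whose heme enzyme makes hypochlorous acid, had log2 levels in WT, Het and KO of 12.61, 12.42 and 12.46 in Pre MegE, 11.71, 11.43 and 11.41 in Pre CFU-E and 11.52, 11.13 and 11.29 in CFU-E. WT was highest at each stage, and the order of Het and KO changed between stages. The log2 difference from WT was -0.23 ± 0.07 in KO, 1.17-fold lower, and -0.29 ± 0.10 in Het (SD over 3 stages).

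Ms4a3 had log2 levels in WT, Het and KO of 10.05, 9.70 and 9.61 in Pre MegE, 9.24, 8.88 and 8.81 in Pre CFU-E and 9.32, 9.01 and 9.01 in CFU-E. Fcnb had levels of 10.34, 10.02 and 9.89, then 9.41, 9.08 and 8.96, then 9.21, 9.01 and 8.82 in the same order. In both genes WT was highest and KO lowest at every stage. The KO minus WT difference in log2 level was -0.39 ± 0.07 for Ms4a3 and -0.43 ± 0.03 for Fcnb, and the Het minus WT difference was -0.34 ± 0.03 and -0.28 ± 0.08 (SD over 3 stages).

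Of the secondary granule genes, Ngp, which encodes a cystatin-like granule protein, had log2 levels in WT, Het and KO of 13.50, 13.41 and 13.23 in Pre MegE, 12.85, 12.57 and 12.59 in Pre CFU-E and 12.55, 12.37 and 12.24 in CFU-E. WT was highest at each stage, and Het lay between WT and KO in Pre MegE and CFU-E. The log2 difference from WT was -0.28 ± 0.03 in KO and -0.19 ± 0.09 in Het (SD over 3 stages).

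Ltf, which encodes the iron-binding protein lactoferrin, had log2 levels in WT, Het and KO of 12.05, 12.01 and 11.71 in Pre MegE, 11.08, 11.04 and 10.87 in Pre CFU-E and 10.91, 10.89 and 10.68 in CFU-E. Het and WT lay within 0.05 of each other at each stage and KO stood below both. The log2 difference from WT was -0.26 ± 0.07 in KO and -0.04 ± 0.01 in Het (SD over 3 stages).

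Camp had log2 levels in WT, Het and KO of 11.03, 11.32 and 10.96 in Pre MegE, 10.32, 10.10 and 9.98 in Pre CFU-E and 10.23, 10.16 and 9.95 in CFU-E. The Het Pre MegE array was the highest of the 9, above the WT array of its stage, and KO was the lowest at each stage. The log2 difference from WT was -0.23 ± 0.15 in KO and 0.00 ± 0.26 in Het (SD over 3 stages). Among the Het minus WT differences of the granule genes, this spread was the largest.

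Lcn2, which withholds iron from bacteria by binding siderophores, had log2 levels in WT, Het and KO of 12.53, 12.35 and 12.03 in Pre MegE, 11.59, 11.46 and 11.13 in Pre CFU-E and 10.83, 10.73 and 10.82 in CFU-E. KO was lowest in Pre MegE and Pre CFU-E, and the 3 genotypes spanned only 10.73 to 10.83 in CFU-E. The log2 difference from WT was -0.32 ± 0.27 in KO and -0.14 ± 0.04 in Het (SD over 3 stages).

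Set against all genes above the intensity filter, the KO minus WT log2 differences were at or below -0.25 for 8 of the 10 granule genes in Pre MegE, where 2.63% of all genes were, for 9 in Pre CFU-E (1.36% of all genes) and for 7 in CFU-E (6.56% of all genes). At all 3 stages, 6 of the 10 were at or below -0.25, namely Elane, Prtn3, Ctsg, Ms4a3, Fcnb and Ngp, and so were 0.271% of all genes. The Het minus WT log2 differences were at or below -0.25 for 5 of the 10 in Pre MegE (3.85% of all genes), 7 in Pre CFU-E (1.98%) and 5 in CFU-E (1.58%). No granule gene reached a log2 difference of -1, which 0.0187%, 0.0187% and 0.0467% of all genes reached in KO and 0.00934%, 0.0187% and 0.0187% in Het at the 3 stages in turn. Because the genes were selected on these contrasts and the -0.25 limit was added after the data were seen, the counts are a description. In a limma fit over the 9 progenitor arrays, 0.14% of genes were called for KO minus WT (2 higher and 13 lower) and 0.0374% for Het minus WT, at an adjusted p under 0.05.

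The primary and secondary granule genes differed mainly in Het cells. The median KO minus WT log2 difference was -0.39, -0.39 and -0.35 for the 6 primary genes at the 3 stages in turn, and -0.31, -0.30 and -0.26 for the 4 secondary genes. The median Het minus WT log2 difference was -0.30, -0.36 and -0.38 for the primary genes and -0.07, -0.17 and -0.09 for the secondary genes. Averaged over stages, the Het minus WT values of the 6 primary genes ran from -0.42 (Elane) to -0.28 (Fcnb). Those of the 4 secondary genes ran from -0.19 (Ngp) to 0.00 (Camp). The wider lists described below did not show this split. Their Het minus WT medians were -0.03 for 6 other early granule genes and -0.07 for 14 other secondary and tertiary granule genes. The median KO minus Het log2 difference was accordingly -0.05, 0.00 and 0.02 for the primary genes and -0.31, -0.15 and -0.17 for the secondary genes. KO and Het share the WT arrays in these differences, and no test was made of the contrast between the groups.

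**Figure D2:**
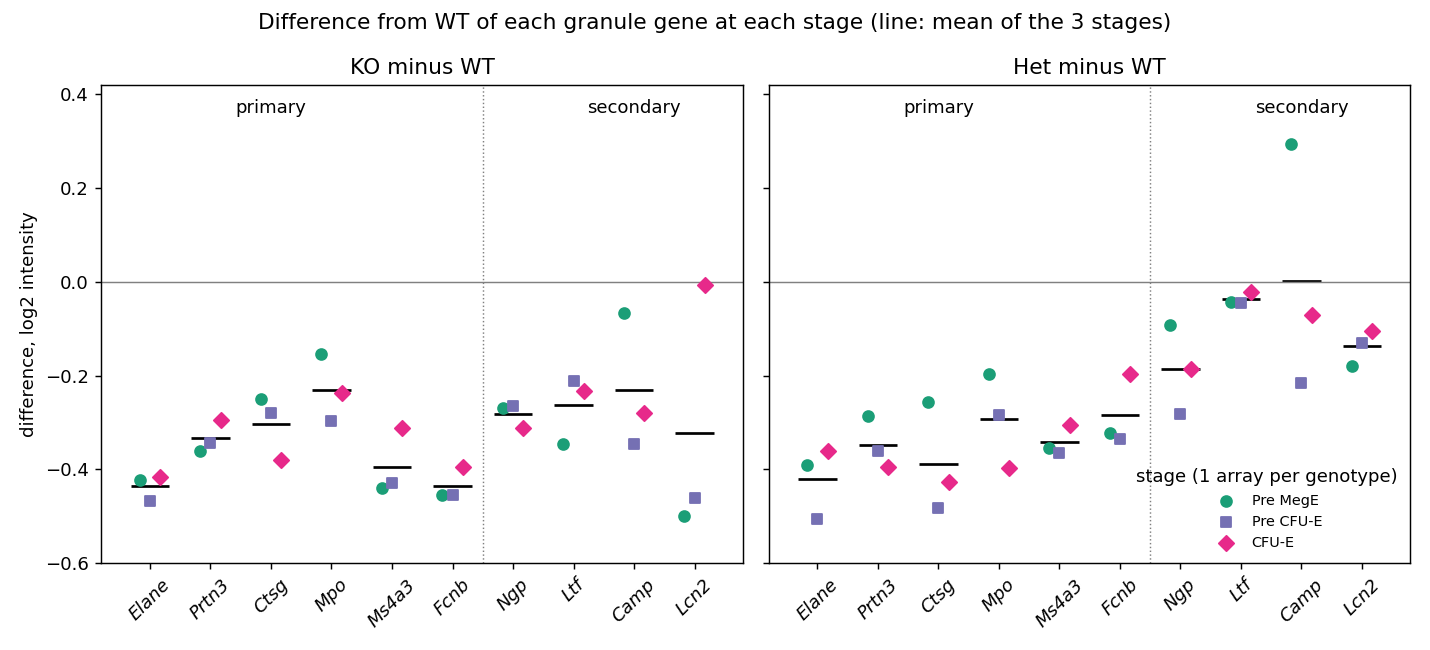
Difference in log2 intensity from WT of each granule gene, for KO (left) and Het (right), with green circles for Pre MegE, purple squares for Pre CFU-E and pink diamonds for CFU-E, and a line at the mean of the 3 stages. The primary genes lie below 0 in both panels, and in the Het panel Ltf and Camp lie at means of -0.04 and 0.00, with Camp in Pre MegE at 0.29.

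The same offsets can be put as correlations. After the stage mean was removed from each gene, the correlation over the 9 arrays had a median of 0.95 among the 15 pairs of primary genes, with Elane and Ms4a3 at 0.98. It had a median of 0.73 among the 6 pairs of secondary genes and 0.63 among the 24 mixed pairs, which ran from 0.33 for Mpo with Camp to 0.95 for Fcnb with Ngp. With 1 array per genotype and stage, these deviations are the genotype differences themselves, so the values restate them and add no support. Fcnb with Ngp shows that the grouping into primary and secondary genes is not sharp on this measure.

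The sign of the stage differences was the same in the 3 genotypes for the earlier step, and the sizes varied; no test of a difference between genotypes was made. Every gene was lower in Pre CFU-E than in Pre MegE in every genotype, with a mean log2 difference from -0.71 ± 0.11 (SD over 3 genotypes) for Ngp to -0.98 ± 0.07 for Mpo. These are levels 1.63-fold and 1.97-fold lower. The same difference was -0.90 ± 0.06 for Elane, -0.93 ± 0.08 for Ltf and -0.94 ± 0.01 for Fcnb. Camp had the widest spread, -0.70 in WT, -1.21 in Het and -0.98 in KO, where the Het Pre MegE array was the high one. Across all genes, 66.3% were called in either direction for this step, with 3965 higher and 3134 lower, or 5045 and 2522 after centring. The median log2 difference was 0.04, or 0.12 after centring. How many of all genes were lower in all 3 genotypes was not counted.

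The later step, to CFU-E, separated the genes. Lcn2 was lower again, with log2 differences of -0.76 in WT, -0.74 in Het and -0.31 in KO. Ngp (-0.28 ± 0.07, SD over 3 genotypes), Elane (-0.23 ± 0.07), Mpo (-0.20 ± 0.09) and Ltf (-0.17 ± 0.02) were also lower in all 3 genotypes. Ms4a3 was higher in CFU-E in all 3, by 0.14 ± 0.06. Fcnb (-0.13 ± 0.07) and Prtn3 (-0.06 ± 0.04) were lower in all 3 genotypes too, while Ctsg (-0.02 ± 0.08) and Camp (-0.02 ± 0.07) were lower in 2 of 3. In at least 1 genotype each of these 4 took the other sign when the arrays were centred or quantile normalized. Of all genes, 44% were called for this step. Over both steps together, the log2 difference from Pre MegE to CFU-E ran from -0.67 ± 0.06 for Ms4a3 to -1.51 ± 0.27 for Lcn2, the latter a 2.85-fold lower level.

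Other genes of the secondary and tertiary granules had mostly negative KO minus WT differences. Of 14 that passed the intensity filter, 13 had a negative KO minus WT log2 difference over the 3 stages. The median was -0.29 against 0.00 for all genes, and how many of all genes were negative was not counted. Against 13 of all 10701 genes, 1 of the 14 was called lower by limma. That gene was Pglyrp1, a peptidoglycan recognition protein of granules, at -0.42 ± 0.06 (SE), adjusted p = 0.0484. Olfm4, an olfactomedin of a subset of neutrophils, had a difference of -0.45 with adjusted p = 0.0636, and Chil3, Mmp8 and Chil1 had differences of -0.36, -0.34 and -0.32 with adjusted p = 0.341, 0.475 and 0.193 (limma). The Pglyrp1 call was lost in 12 of 15 alternatives, with adjusted p from 0.0202 to 0.385, and it was kept on leaving out 1 array only when that array was Het Pre CFU-E. In Het, none of the 14 was called and the median log2 difference was -0.07. From Pre MegE to Pre CFU-E, limma called 12 of the 14 lower and 1 higher, with Tcn2 at -1.31, Cybb at -1.15 and Anxa1 at -1.06. Of all 10701 genes, 3134 were called lower for this step and 3965 higher. From Pre CFU-E to CFU-E all 14 had a negative log2 difference. Of these, 5 were called lower, led by Cyba at -1.20 and Tcn2 at -1.18. For that step 2708 of all genes were called lower and 2004 higher.

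Other early granule genes did not show a called genotype difference. None of the 6 tested was called in KO or in Het by limma, with medians of -0.13 and -0.03. Lyz2 and Lyz1, the lysozymes, had KO minus WT log2 differences of -0.28 and -0.30 with adjusted p = 0.67 and 0.689, and Prss57, a serine protease of the azurophil granule, had -0.16 with adjusted p = 0.881. The lysozyme genes are near-identical copies, so their probe sets may share signal. In Pre CFU-E against Pre MegE, limma called 5 of the 6 lower, including Plac8 at -1.60 and Lyz2 at -1.08, against 3134 of all 10701 genes. Gusb, a lysosomal glucuronidase, was called higher, at 0.45.

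The machinery that processes and packs the proteases was also measured. None of the 10 genes for protease activation, packing and release was called for KO or Het, and the medians were -0.01 and -0.02. Ctsc, the dipeptidyl peptidase that activates elastase, proteinase 3 and cathepsin G, had a KO minus WT log2 difference of -0.18 with limma adjusted p = 0.921. Srgn, the proteoglycan core that holds the proteases in the granule, had -0.09 with adjusted p = 0.981. Cd63, a membrane protein of azurophil granules and of lysosomes, had -0.57 in KO and -0.39 in Het, with adjusted p = 0.318 and 0.842. Across stages, Ctsc and Cd63 fell from Pre CFU-E to CFU-E by log2 differences of -1.29 and -1.49. Among 6 protease inhibitors none was called for genotype; Serpinb1a, an inhibitor of elastase, proteinase 3 and cathepsin G, had a KO minus WT log2 difference of -0.29 with adjusted p = 0.553. It fell from Pre MegE to Pre CFU-E by -1.28, and Cst7, cystatin F, by -1.25.

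Among 10 granulocyte transcription factors none was called for KO or Het, with medians of -0.06 and -0.03. The largest KO minus WT log2 differences were -0.22 for Gfi1, a repressor needed for neutrophil maturation, and -0.19 for Cebpe, the factor of the secondary granule genes, with limma adjusted p = 0.67 and 0.484. Spi1, which encodes PU.1, had -0.09 with adjusted p = 0.906. From Pre MegE to Pre CFU-E limma called 9 of the 10 lower, led by Spi1 at -1.41 and Runx1 at -1.13, against 3134 of all 10701 genes. From Pre CFU-E to CFU-E it called 6 lower and 1 higher, led by Spi1 at -0.86. For that step 2708 of all genes were called lower and 2004 higher.

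**Figure D3:**
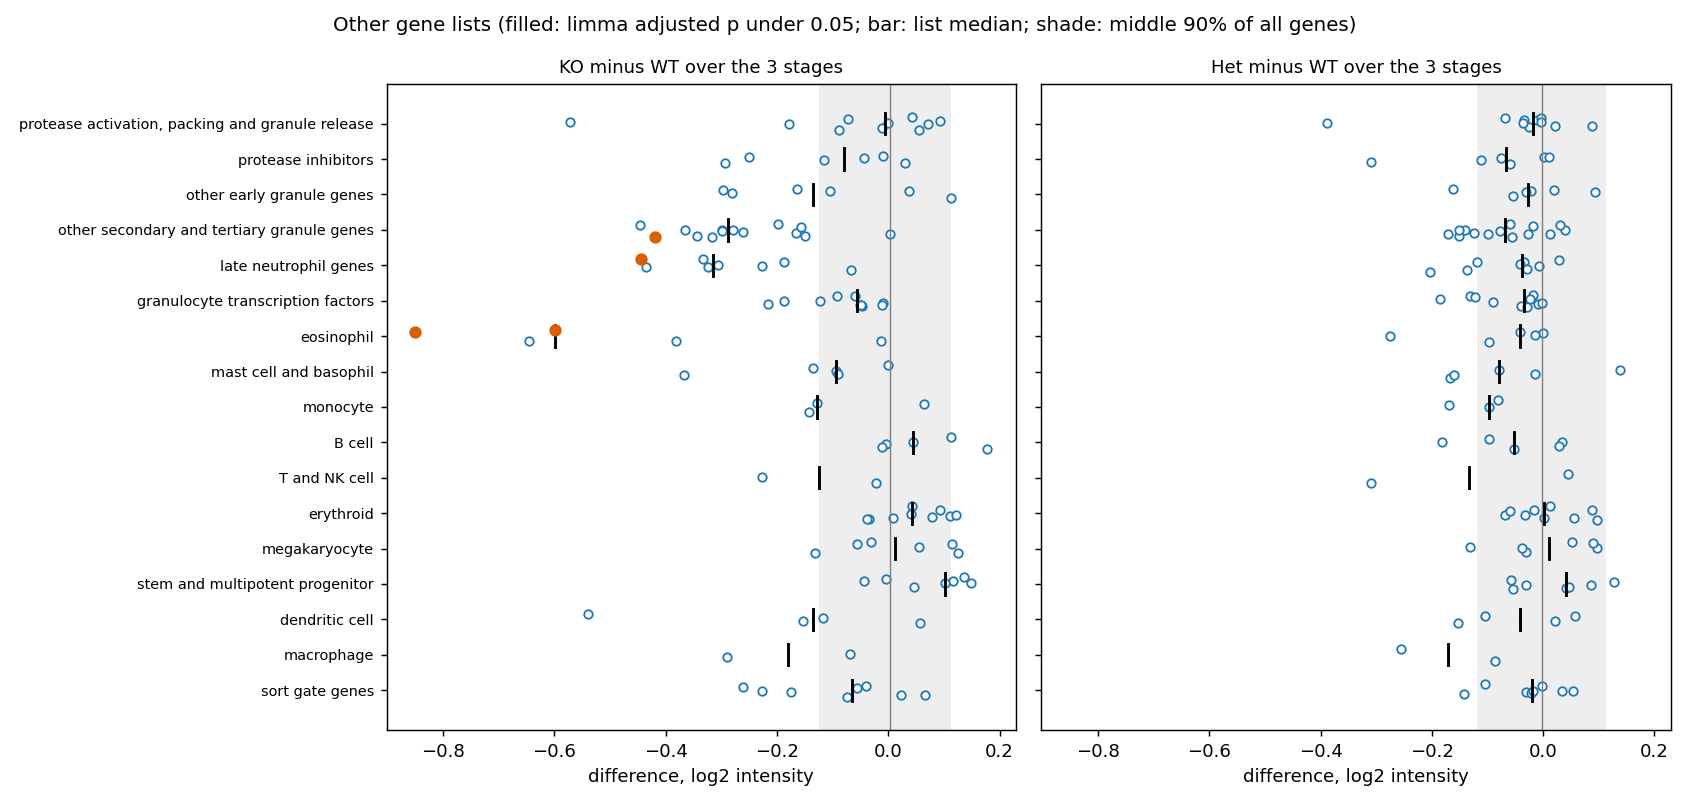
Log2 difference over the 3 stages for genes of 17 other lists, 1 point per gene, for KO minus WT (left) and Het minus WT (right). Filled orange points passed the limma test, bars are list medians and the shaded band spans the middle 90% of all genes that passed the filter. The 4 filled points are Pglyrp1, Ly6g, Epx and Prg2, all in the KO panel.

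Among genes of mature neutrophils and of eosinophils, 1 of 8 and 2 of 5 were called lower in KO, against 13 of all 10701 genes. All 8 late neutrophil genes tested had a negative KO minus WT log2 difference, with a median of -0.32 against 0.00 for all genes. How many of all genes had a negative difference was not counted. Limma called 1 of the 8, Ly6g, the neutrophil surface antigen, at -0.44 ± 0.06 (SE), adjusted p = 0.0289. The mean log2 level of the 8 genes at the 3 stages in turn was 9.89, 9.10 and 9.02 in WT, 9.90, 8.94 and 8.96 in Het and 9.64, 8.83 and 8.67 in KO. Of 5 eosinophil genes, 2 were called lower in KO by limma: Epx, eosinophil peroxidase, at -0.85 ± 0.11 (SE), adjusted p = 0.0344, and Prg2, major basic protein, at -0.60 ± 0.07, adjusted p = 0.0191. The mean log2 level of the 5 was 10.37, 9.63 and 9.47 in WT, 10.40, 9.38 and 9.44 in Het and 9.79, 9.11 and 9.09 in KO over the same stages. In Het, none of the 8 or of the 5 was called, and the medians were -0.04 for both lists. The Ly6g, Epx and Prg2 calls were lost in 10, 10 and 7 of 15 alternatives, with adjusted p up to 0.246, 0.227 and 0.205. Leaving out WT Pre CFU-E, WT CFU-E, Het CFU-E or KO Pre MegE ended each of these 3 calls. Leaving out WT Pre MegE or Het Pre MegE also ended those of Ly6g and Epx, KO Pre CFU-E those of Epx and Prg2, and KO CFU-E that of Ly6g. The part of neutrophil or eosinophil cells in the granule gene differences was not tested.

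The lists for other blood cells had no called gene for KO minus WT or Het minus WT. Their KO minus WT medians were 0.04 for 9 erythroid genes, 0.01 for 6 megakaryocyte genes, 0.10 for 7 stem and multipotent progenitor genes, 0.04 for 5 B cell genes, -0.09 for 5 mast cell and basophil genes and -0.13 for 3 monocyte genes. They were -0.12 for 2 T and NK cell genes, -0.13 for 4 dendritic cell genes and -0.18 for 2 macrophage genes. The dendritic cell list includes Zbtb46, the gene altered in these mice, which was itself not called, at -0.54 with limma adjusted p = 0.847. From Pre MegE to Pre CFU-E limma called all 8 late neutrophil genes, all 5 eosinophil genes and all 5 B cell genes lower. Their medians were -0.89, -0.85 and -0.80. All 7 stem and multipotent progenitor genes were called lower, with a median of -2.54. For this step 66.3% of all 10701 genes were called in either direction, and 3134 were called lower. From Pre CFU-E to CFU-E none of the 8 late neutrophil genes was called by limma, and their median was -0.07. For that step 44% of all genes were called.

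Splenic CD4+ dendritic cells were the other population measured, and there the granule genes gave low signals. Each of the 10 was at or above its array's median on all 9 progenitor arrays and below it on both DC arrays. How many of all genes did the same was not counted, so this count has no background. The 10 genes entered the 11-array limma fit of cell type and genotype only through the progenitor arrays. No count or p-value from that fit is therefore given for them. In that fit 64.6% of 11560 genes were called lower in DC, from which nothing is read about the granule genes, and the median log2 difference was -0.59. Under quantile normalization, which moved that median to -0.11, 4610 genes were called higher and 5583 lower in place of 2928 and 7463. Since the DC signals lie below the array median, the differences are given as lower bounds, the mean of the 9 progenitor arrays minus the mean median of the DC arrays. On that basis Ngp was at least 36.4-fold higher in progenitors, Mpo at least 17.7-fold, Lcn2 at least 14.7-fold and Elane at least 14.1-fold. The bound was at least 12.3-fold for Ltf, 9.69-fold for Ctsg, 7.51-fold for Prtn3 and 7.09-fold for Camp, and at least 3.46-fold for Fcnb and 3.18-fold for Ms4a3. The bounds follow each probe set's progenitor signal and give no order between genes. The tissue of origin, the sex-linked genes and the cell type cannot be told apart here: Xist had log2 levels of 13.21 and 13.28 and Uty of 4.43 and 4.75 on the WT and KO DC arrays.

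KO minus WT in DC rests on 1 array each. The log2 levels in WT and KO were 7.17 and 7.14 for Elane, 6.96 and 7.06 for Prtn3, 5.90 and 5.75 for Ctsg, 7.03 and 7.14 for Mpo and 5.80 and 5.84 for Ms4a3. They were 6.97 and 7.20 for Fcnb, 6.35 and 6.65 for Ngp, 6.61 and 6.55 for Ltf, 7.14 and 7.21 for Camp and 7.27 and 7.05 for Lcn2. Of the 10, 6 were higher and 4 lower in KO, and all stood below the medians of the DC arrays, 7.61 and 7.64. Of the 10 genes for protease activation, packing and release, 3 were called higher and 7 lower in DC than in progenitors by limma, with a median log2 difference of -0.59, the same as for all genes. Ctsc had 2.88, Vamp8 -1.08 and Cd63 -1.01. Among the other early granule genes, the highest log2 difference was 2.53, for Lyz1. Prss57, at 6.91 and 7.04, and Clec11a, at 7.15 and 7.22, lay below the medians of the WT and KO DC arrays. Both entered the fit only through the progenitor arrays, so no count of calls is given for this list.

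**Figure D4:**
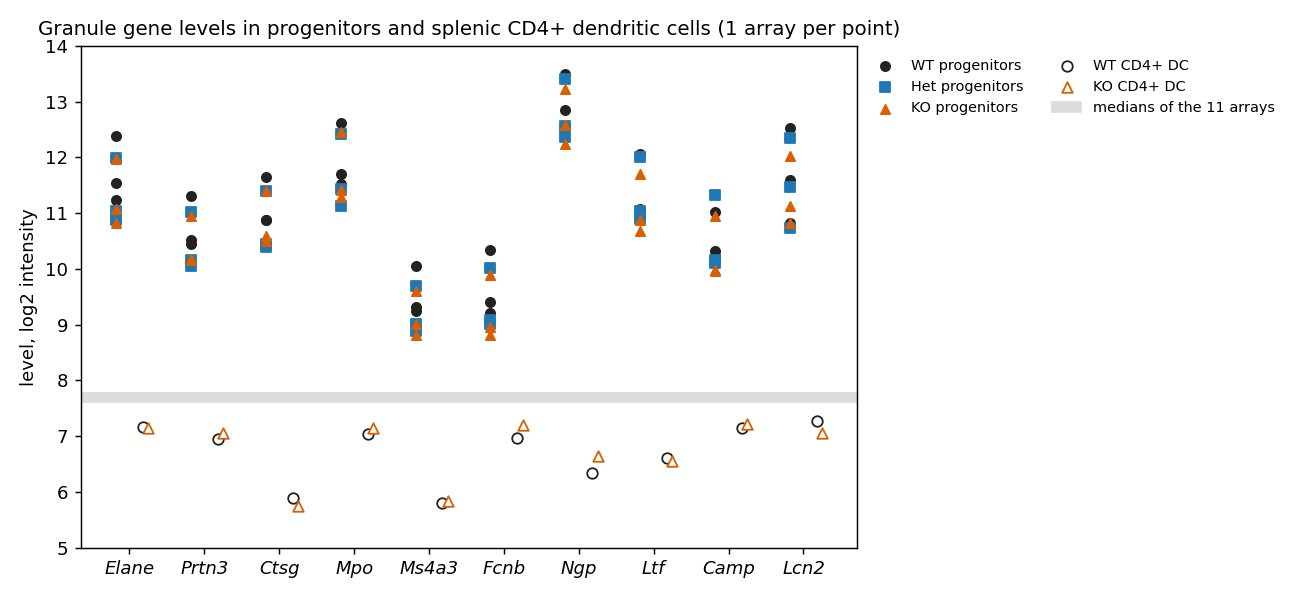
Log2 intensity (level) of each granule gene on the 9 progenitor arrays (filled) and the 2 splenic CD4+ DC arrays (open), coloured by genotype, with a grey band for the medians of the 11 arrays. All progenitor points lie above the band, the lowest being Ms4a3 at 8.81. All DC points lie below it, the highest being Lcn2 in WT at 7.27. How many of all genes did the same was not counted.

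The genes whose profile over the 9 progenitor arrays was most like the mean profile of the primary genes, among 2235 genes with a range of at least 1 on the log2 scale, were Clec12a (Pearson r = 0.99), Cxcr2 and BC018473 (both 0.98). Igsf6, Pstpip2, Robo3, Anxa1 and Tfec followed at 0.97 to 0.98. Clec12a, an inhibitory C-type lectin receptor of myeloid cells, had KO minus WT log2 differences of -0.39, -0.48 and -0.38 and Het minus WT differences of -0.23, -0.26 and -0.41 in the 3 stages. The genes most like the secondary mean were H2-K2 (r = 0.996), Chil1, Fcgr2b, Ceacam1, Fam107b, BC018473, Fgl2 and Cd52, the last at 0.99. Chil1, a chitinase-like protein of specific granules, had KO minus WT log2 differences of -0.36, -0.16 and -0.43 and Het minus WT differences of -0.02, -0.11 and -0.16. These r values are over 9 arrays that share a stage trend and are a description.

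The granule genes were also set beside their neighbours in the genome. The 2 nearest protein-coding genes on each side of each granule gene gave 36 distinct genes, of which 22 passed the intensity filter. Of these 22, 3 were lower in KO than in WT at all 3 stages and 0 were at or below -0.25 at all 3. The granule genes were selected on this contrast and their neighbours were not, so no comparison of the counts is made. On chromosome 10, Plppr3 lies just before the Prtn3 and Elane pair, and Cfd and then Med16 lie after it. Plppr3 and Med16 had KO minus WT log2 differences of 0.02, 0.00 and -0.18 and of 0.00, 0.00 and 0.18. Cfd, the gene next to Elane, had no probe set that was used. Among the 3 that were lower at all 3 stages, Ccrl2, beside Ltf on chromosome 9, had the most negative values, -0.24, -0.18 and -0.22. Ms4a2, beside Ms4a3 on chromosome 19, changed sign between stages, with 0.45, 0.03 and -0.48. Mcpt8, a basophil protease gene beside Ctsg on chromosome 14, had -0.06, -0.13 and -0.21.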

How the data were processed

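The deposited values were probe set intensities on a linear scale from 11 arrays (mouse gene arrays, total RNA labelled with the Ambion/Affymetrix WT Expression Kit, per the labels' protocols), which, per the submitters' processing notes, the authors computed by RMA. Its version and options are not stated in the sources used here. The log2 of each intensity was taken with no further scaling. Of 29674 probe sets, 21780 had 1 symbol in the platform annotation, 1618 several and 6276 were unlisted; a gene with several probe sets was represented by the one with the highest mean, and 19933 genes resulted. Levels were not compared between probe sets.

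Genes at or above the array median on at least 2 arrays were tested in limma 3.58.1 (R 4.3.3): genotype plus stage over the 9 progenitor arrays (10701 genes, 4 residual degrees of freedom), and cell type plus genotype over all 11 (11560 genes, 5 residual degrees of freedom), with Benjamini-Hochberg adjusted p-values and a threshold of 0.05. The median residual SD of the progenitor fit was 0.07 on the log2 scale. With 1 array per group, genotype was compared over stages, so a difference between stages in the genotype effect enters the residual. The number of arrays limits the precision.

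The genes and gene lists were chosen with earlier results of these data known. The text names all 10 granule genes. Per list it names up to 4 genes with the largest difference among those called, or among all where none was called. Olfm4, Chil3, Mmp8 and Chil1 for KO minus WT, Slamf1, Fcgr2b, Fcgr3 and Zbtb46 were chosen after their values were seen. Promoter sequences are from RefSeq (GRCm38.p6), and all 10 genes matched by symbol. Alternatives were median centring, quantile normalization, no filter, the mean of all probe sets, robust eBayes, fits on fewer groups and leaving out each array. The -0.25 limit, the lower bounds for DC, the sex-linked genes and the motifs were added after the data were seen.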

Additional observations from a re-analysis of the deposited data

Results flagged for a closer look

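In 5 granule genes the KO minus WT difference in log2 level on the pair of DC arrays was opposite in sign to that at all 3 progenitor stages, with both sizes above the median residual SD of the progenitor fit. The DC difference was 0.31 for Ngp, where the progenitor mean was -0.28, and 0.23 for Fcnb, where it was -0.43. It was 0.11 for Mpo, 0.10 for Prtn3 and 0.0715 for Camp, where the progenitor means were -0.23, -0.33 and -0.23. Each rests on 1 array per genotype and on signals below the median of the DC arrays, and the difference between DC and progenitors in the genotype effect was not tested.

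Camp had a Het minus WT log2 difference of 0.29 in Pre MegE and of -0.22 in Pre CFU-E. The Het Pre MegE array was the highest of the 9 for this gene, and the difference between the stages was not tested.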

How the results depend on the processing

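The granule gene medians for KO and Het at each stage moved by less than the median residual SD under centring, quantile normalization and the mean of all probe sets. Of the 60 genotype differences of single granule genes, 0 changed sign under centring and 1 under quantile normalization, Lcn2 for KO minus WT in CFU-E, from -0.01 to 0.01. Of the 60 stage steps, 3 changed sign under centring and 3 under quantile normalization, all of them from Pre CFU-E to CFU-E. Counts of called genes over the whole table were less stable. For KO minus WT, 15 genes were called, with 614 at an unadjusted p under 0.05; the count was 7 without the filter on dim genes and ran from 1 (without WT Pre CFU-E or without KO Pre MegE) to 26 (without Het Pre CFU-E) on leaving out 1 array. It was 2 without WT CFU-E, 6 without WT Pre MegE, 7 without KO Pre CFU-E and 8 without Het Pre MegE or Het CFU-E. For Het minus WT, 4 genes were called, with 566 at an unadjusted p under 0.05; the count was 1 without the filter, 1 with only WT and Het arrays, and ran from 1 to 5 on leaving out 1 array. The fit of the progenitor arrays held stage as a term, so genotypes were compared within stages. With 1 array per group, differences at a single stage have no replicate check.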
